A study of Mus musculus with 7 samples.

Results

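The nuclei described here are those that the authors' deposited annotation of mouse striatum calls Pnoc/Pvalb interneurons, 120 of 4524 annotated nuclei. They were taken by that label alone and are compared with the 288 nuclei annotated as Sst interneurons and the 73 annotated as Chat interneurons, and by genotype. The series measured RNA in single striatal nuclei of male C57BL6/J mice to ask how a Huntington's disease mutation affects striatal cell identity. The mutant mice (HttQ175/+, n = 4) carried in the germline, in 1 copy, a knock-in huntingtin (Htt) allele whose CAG repeat is expanded. The other mice were wild type (WT, n = 3). HttQ175/+ replicate 1 was aged 15 months and every other mouse 14 months. Transcript 3' ends were captured in 1 droplet library per sample and counted as unique molecular identifiers (UMIs). The series names as many mice as there are libraries, so a library is 1 mouse and 1 replicate, and replicate numbers only name the mice.

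Interneurons are the local inhibitory and cholinergic cells of the striatum, and they regulate the spiny projection neurons that carry its output. Fast-spiking interneurons release GABA onto spiny neurons close to the cell body. They come from the medial ganglionic eminence, an embryonic source of GABA neurons, and are usually recognised by parvalbumin, a calcium buffer encoded by Pvalb. Pnoc encodes prepronociceptin, the precursor of the opioid-like peptide nociceptin. Kit encodes a receptor tyrosine kinase for stem cell factor.

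HttQ175/+ replicates 1 to 4 gave 26, 27, 5 and 22 Pnoc/Pvalb nuclei, and WT replicates 1 to 3 gave 13, 18 and 9. These nuclei held 75366, 51601, 11334 and 51530 UMIs in the HttQ175/+ mice and 40725, 52350 and 25467 UMIs in the WT mice. HttQ175/+ replicate 3 therefore rests on 5 nuclei, and its values are the least certain. No cell barcode of these nuclei recurred in another library. The median nucleus held 2525 UMIs, against 2119 in Sst nuclei, 2815 in Chat nuclei and 2158.5 in oligodendrocytes. Levels below are in CPM, the UMIs of a gene per 1000000 UMIs, averaged over the nuclei of a mouse. Intervals on shares are exact 95% binomial intervals and cover counting error only. A count of 0 is instead given with a limit of 3 nuclei of the total, which bounds nuclei with a UMI and not nuclei that express the gene.

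Of the 2 genes in the label, Pvalb was detected more often than in the other types examined and Pnoc was almost absent; Kit and Gad1, the other markers given with the type, were frequent. Pnoc (chromosome 14, 65400673 to 65425472, mm10) gave 1 UMI in 1 of the 120 nuclei, a share of 0.833% (interval 0.0211 to 4.56%). The Sst nuclei gave 2 Pnoc UMIs in 288 nuclei, the Chat nuclei gave 0 in 73, a limit of 4.11% (exact upper bound 4.93%), and oligodendrocytes, which should lack the gene, gave 1 in 468. The interval of oligodendrocytes, 0.00541 to 1.19%, overlapped that of the Pnoc/Pvalb nuclei, so at this depth the nuclei cannot be described as Pnoc-positive. Kit (chromosome 5, 75574916 to 75656722) was the most regular of the given markers, with 265 UMIs and a share of 80.0% (71.7 to 86.8%). Kit was found in 11.1% of Sst nuclei, 2.74% of Chat nuclei and 2.14% of oligodendrocytes.

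Pvalb (chromosome 15, 78191114 to 78206400) was found in 25.8% of the Pnoc/Pvalb nuclei (18.3 to 34.6%), with 48 UMIs in 31 nuclei. The Sst nuclei also gave 48 Pvalb UMIs, but spread over a share of 9.38% of 288 nuclei (6.27 to 13.3%), and oligodendrocytes stood at 1.07%. Gad1, which encodes the GABA-synthesising enzyme GAD67, was found in 56.7% of Pnoc/Pvalb nuclei, 26.0% of Sst nuclei, 15.1% of Chat nuclei and 9.83% of oligodendrocytes. After every nucleus was thinned to 1100 UMIs the Pnoc/Pvalb shares were 59.2% for Kit, 41.7% for Gad1 and 12.5% for Pvalb, against 7.99%, 20.5% and 4.51% in Sst nuclei. All 120 nuclei were deep enough to be kept in that thinning.

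**Figure D1:**
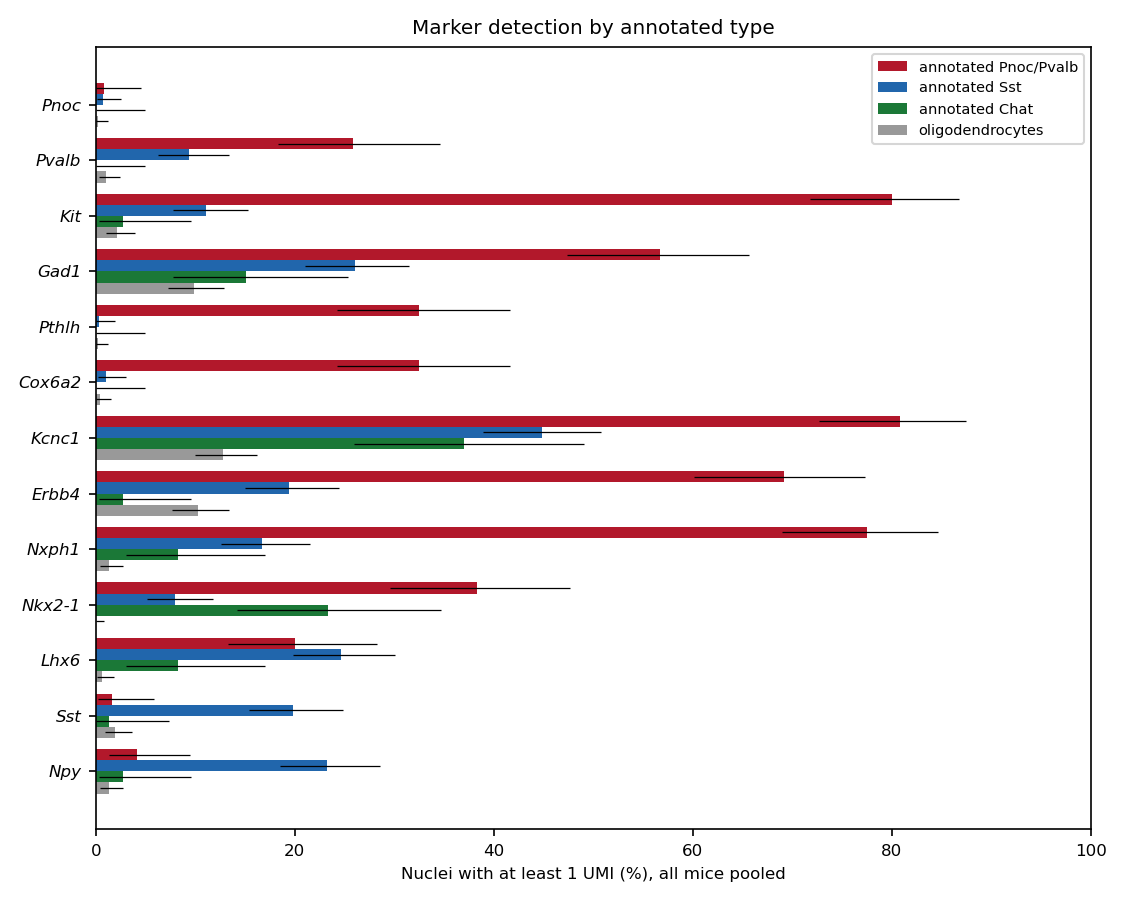
Share of nuclei (%) with at least 1 UMI of each gene, pooled over mice, in annotated Pnoc/Pvalb (n = 120), Sst (n = 288) and Chat (n = 73) nuclei and in oligodendrocytes (n = 468). Bars are shares and lines exact 95% intervals; Kit reached 80.0% and Pnoc 0.833% in the Pnoc/Pvalb nuclei.

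Other genes listed for fast-spiking cells were in part frequent and in part scarce in the Pnoc/Pvalb nuclei. Among the scarce ones, Kcnc2, Syt2, Esrrg and Nefh gave 7, 6, 3 and 3 UMIs in HttQ175/+ mice. In WT mice they gave 3, 5, 3 and 2 UMIs. The genes that follow were more frequent, and of these Nxph1 and Nkx2-1 were listed under synaptic adhesion and lineage instead. Pthlh, the parathyroid hormone-like peptide gene (chromosome 6, 147252101 to 147264183), and Cox6a2, a subunit of mitochondrial cytochrome c oxidase, were each found in 32.5% of these nuclei. In Sst nuclei Pthlh was found in 0.347% and Cox6a2 in 1.04%, and in Chat nuclei neither had a UMI. Kcnc1, the fast potassium channel Kv3.1, was found in 80.8% of Pnoc/Pvalb nuclei, 44.8% of Sst nuclei and 37.0% of Chat nuclei. Erbb4, a neuregulin receptor, was found in 69.2%, against 19.4% of Sst nuclei, and Nxph1, a secreted ligand of neurexins, in 77.5%, against 16.7%. Nkx2-1, a transcription factor of the medial ganglionic eminence, was found in 38.3%, against 7.99% of Sst nuclei and 23.3% of Chat nuclei.

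Markers of other interneuron types were scarce in these nuclei, but RNA of spiny neurons and glia was present. Sst was found in 1.67%, Npy and Th in 4.17% each, and Chat in 0 of 120 nuclei, a limit of 2.5% (exact upper bound 3.03%). All 4 cortical excitatory markers were at 0. Spiny neuron RNA was present: at least 1 of 12 spiny neuron markers had a UMI in 39.2% of the nuclei, and their summed level was 523 to 897 CPM in HttQ175/+ mice and 257 to 1023 CPM in WT mice. At least 1 of 7 astrocyte markers had a UMI in 26.7% of the nuclei, against 16.3% of Sst nuclei. Their summed level was 168.5 to 297.5 CPM in HttQ175/+ mice and 83.6 to 286.5 CPM in WT mice. The summed oligodendrocyte markers ranged from 0 to 771 CPM in HttQ175/+ mice and from 0 to 371 CPM in WT mice. The part of these RNAs in the results below was not tested, beyond the comparison without nuclei that hold glial or vascular markers.

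Detection of their own markers differed between the 3 labels. At least 1 marker of its own list was found in 91.7% of Pnoc/Pvalb nuclei (4 genes), 26.4% of Sst nuclei (4 genes) and 82.2% of Chat nuclei (6 genes). The lists are not alike: at least 1 of the 4 Pnoc/Pvalb genes, which include Gad1, was also found in 36.1% of Sst and 16.4% of Chat nuclei. Low detection at this depth does not by itself measure purity. Of the nuclei annotated as Sst, 19.8% held an Sst UMI, 23.3% an Npy UMI and 7.29% a UMI of Slc17a7, the vesicular glutamate transporter of cortical excitatory neurons. The 12 spiny neuron markers were found in 54.5% of them. Of Chat nuclei, 35.6% held a Chat UMI. Differences from the Sst nuclei may therefore be in part differences from a mixed label.

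Within the Pnoc/Pvalb nuclei no identity gene was detected in every nucleus. Of the 5 genes Kit, Pvalb, Pthlh, Nkx2-1 and Nxph1, none was seen in 2 nuclei, 1 in 14, 2 in 48, 3 in 31, 4 in 23 and all 5 in 2. The nuclei with none had a median of 1731 UMIs and those with 5 a median of 4775 UMIs, so the count moved with depth. Pthlh was found in 35.5% of the 31 nuclei with a Pvalb UMI and in 31.5% of the 89 without one. Kit was found in 83.9% of nuclei with Pvalb and 78.7% of those without, and Kcnc1 in 93.5% and 76.4%. Th, which marks another interneuron class, was found in 0 of the 31 and 5 of the 89. These are shares over nuclei of the same 7 mice and were not tested.

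Igfbp4, Maf and Kit were the genes furthest above their level in Sst nuclei, and Sst, Npy and Nos1 those furthest below. Cell types of nuclei are called from their expression, so the differences between types are a description with no test. They are within-mouse differences of log2(CPM + 38.8), where the pseudocount of 38.8 CPM is worth 2 UMIs in the mouse of median depth and understates the change of low genes. Of 6008 genes compared, 110 (1.83%) had a mean difference of at least 1 on this scale and were higher in all 7 mice, and 160 (2.66%) had one of at most -1 and were lower in all 7.

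Igfbp4, a binding protein of insulin-like growth factors, averaged 519 ± 178 CPM in Pnoc/Pvalb nuclei and 7.08 ± 15.7 CPM in Sst nuclei (SD, n = 7 mice each), a log2 difference of 3.59 ± 0.43 (SD). Maf, a transcription factor of these interneurons, averaged 553 ± 157 CPM in Pnoc/Pvalb nuclei and 31.2 ± 28.4 CPM in Sst nuclei, a difference of 3.14 ± 0.49. Kit averaged 1065 ± 504 CPM in Pnoc/Pvalb nuclei and 86.8 ± 14.8 CPM in Sst nuclei. Its lowest Pnoc/Pvalb mouse, at 618.5 CPM, lay above its highest Sst mouse, at 105.7 CPM. Col19a1, a collagen, differed by 2.92 ± 0.67, Lamb1, a laminin chain, by 2.92 ± 0.40, and Adamts5, a matrix protease, by 2.48 ± 0.39. Gpr83, a G protein-coupled receptor, differed by 2.90 ± 0.29, Trps1, a zinc finger transcription factor, by 2.78 ± 0.30, and Egfr, the epidermal growth factor receptor, by 2.56 ± 0.80. Nxph1 differed by 2.54 ± 0.34 and Pthlh by 2.46 ± 0.31.

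**Figure D2:**
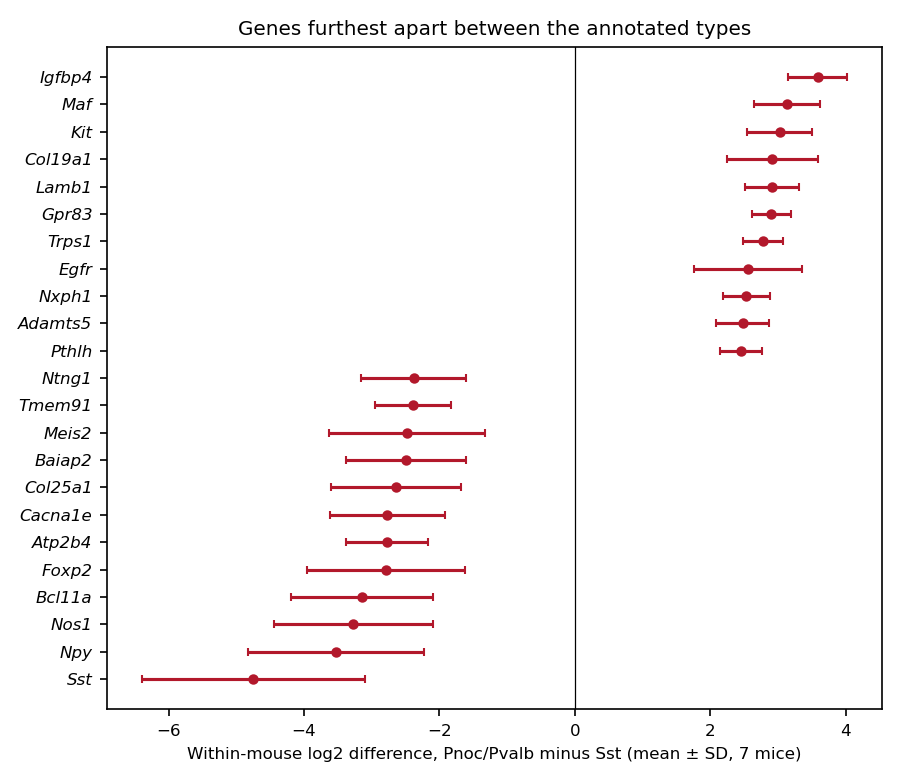
Mean within-mouse difference of log2(CPM + 38.8), Pnoc/Pvalb minus Sst, with its SD over 7 mice, for 11 of the 12 genes furthest higher and the 12 furthest lower. Sst lies lowest at -4.75, and Igfbp4 highest at 3.59.

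The 12 genes furthest lower were led by Sst, at 24.4 ± 64.4 CPM in Pnoc/Pvalb nuclei and 1627 ± 1251 CPM in Sst nuclei, a difference of -4.75 ± 1.64. Npy, the neuropeptide Y gene, differed by -3.53 ± 1.30, and Nos1, neuronal nitric oxide synthase, by -3.27 ± 1.18. These are genes that define the Sst class. The transcription factors Bcl11a, Foxp2 and Meis2 differed by -3.15, -2.79 and -2.48. The others were Atp2b4, a calcium pump, Cacna1e, a calcium channel subunit, Col25a1, also a collagen, Baiap2, Tmem91 and Ntng1, at differences of -2.77 to -2.38.

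By gene list, 7 of 23 measured fast-spiking genes met this rule as higher, and 0 as lower, beside 1.83% and 2.66% of all genes compared. Among them were Pvalb, Pthlh, Kcnc1, Kcnab1 and Erbb4. The sodium channel Scn1a differed by 0.86 ± 0.53 and the mitochondrial regulator Ppargc1a by 0.95 ± 0.35, each higher in 7 of 7 mice. Kcnc2, the channel Kv3.2, differed by -1.03 ± 1.18 and was lower in 5 of 7 mice. Syt2, a fast calcium sensor of release, differed by -1.18 ± 0.77 and was lower in 6 of 7. Of 12 transcription factors of the ganglionic eminence lineage, 6 were higher, among them Nkx2-1, Maf, Etv1, Zeb2 and Prox1. Lhx6 and Sox6, which both classes use, differed by -0.67 ± 1.08 and -0.24 ± 0.83. Zeb2 was also found in 64.1% of oligodendrocytes.

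Of 6 genes of GABA synthesis, release and uptake, 3 met the rule as higher. Over all genes compared, 1.83% met it as higher and 2.66% as lower. Gad1, 1 of the 3, is also a marker given with the type. Gad1 averaged 826 CPM in Pnoc/Pvalb nuclei and 319 CPM in Sst nuclei. Dlx6os1, a noncoding RNA, averaged 606 CPM in Pnoc/Pvalb nuclei and 122 CPM in Sst nuclei. Gad2 and Slc32a1, the vesicular GABA transporter, differed by 0.034 ± 0.55 and 0.045 ± 1.10. Among 15 ionotropic glutamate receptor genes and partners, the AMPA receptor subunits Gria4 (1.91 ± 0.64) and Gria3 (1.02 ± 0.71) were higher in all 7 mice, while Grin3a, Grik2 and Grik3, of the NMDA and kainate families, were lower in all 7, at -1.88, -1.49 and -1.23. Hapln1, a link protein of perineuronal nets, was higher by 2.11 ± 0.61, and Tnr, the net component tenascin-R, stood at -1.01 ± 0.43. Cnr1, the cannabinoid receptor gene, averaged 589 CPM in Pnoc/Pvalb nuclei and 128 CPM in Sst nuclei.

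Against Chat nuclei the comparison rests on the 4 HttQ175/+ mice, because WT mice held 4, 1 and 1 Chat nuclei. Of 5700 genes compared, 340 (5.96%) met the same rule as higher in all 4 mice and 257 (4.51%) as lower. Tcf4, a transcription factor, stood at 2734 ± 117 CPM in Pnoc/Pvalb nuclei and 38.1 ± 46.1 CPM in Chat nuclei, a difference of 5.37 ± 0.85. Kit and Lamb1 had 0 UMIs in the Chat nuclei of these mice and 141 and 84 UMIs in the Pnoc/Pvalb nuclei. Cnr1, Maf, Nxph1 and Zeb2 differed by 3.91, 3.77, 3.72 and 3.66. In the other direction, Ecel1, an endopeptidase-like gene, had 0 UMIs in Pnoc/Pvalb nuclei and 208 in Chat nuclei. Slc5a7, the choline transporter, stood at 4.83 ± 9.67 CPM in Pnoc/Pvalb nuclei and 1088 ± 250 CPM in Chat nuclei, and Cpne4, Slc7a14, Cpne7, Pbx3 and Serpine2 differed by -4.52 to -3.72. Of 19 measured fast-spiking genes, 14 were higher and 0 were lower, beside 5.96% and 4.51% of all genes compared.

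Comparison by genotype first concerns how many such nuclei there were. As a share of all nuclei they made up 3.16%, 2.18%, 1.12% and 3.14% in HttQ175/+ replicates 1 to 4 and 3.11%, 5.33% and 1.61% in WT replicates 1 to 3. The means were 2.40 ± 0.97% and 3.35 ± 1.87% (SD, n = 4 HttQ175/+ and 3 WT mice). The groups overlapped, and the exact two-sided permutation p over the 35 splits of the mice was 0.457, where 0.0286 is the smallest possible. As a share of interneurons they made up 29.2%, 22.5%, 11.4% and 21.0% in HttQ175/+ mice and 37.1%, 36.7% and 23.1% in WT mice. The means were 21.0 ± 7.36% and 32.3 ± 8.01%, with an exact permutation p of 0.143. The difference in the share of all nuclei was -0.95 percentage points with all mice and 0.038 without WT replicate 2.

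**Figure D3:**
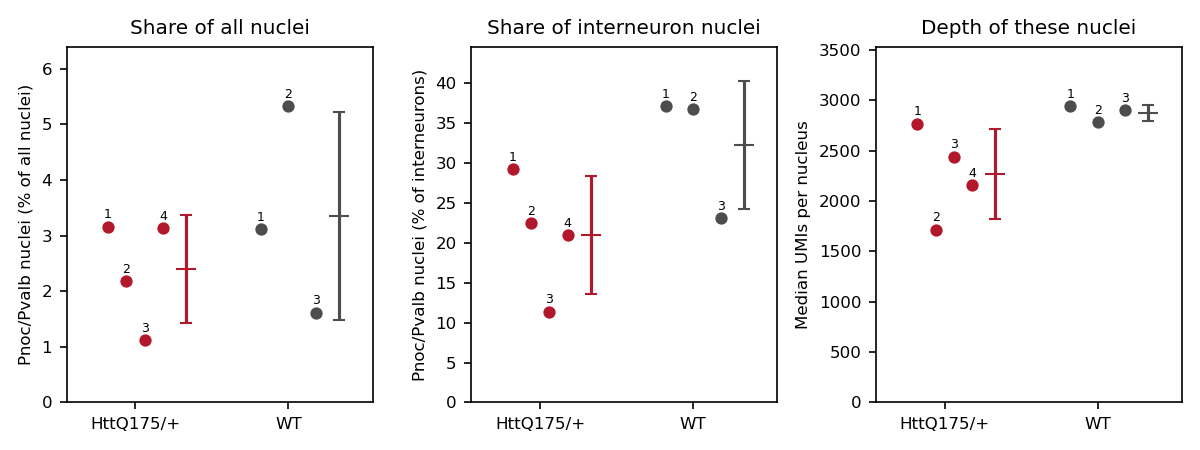
Pnoc/Pvalb nuclei as a percentage of all nuclei and of interneuron nuclei, and their median UMIs per nucleus, by mouse. Points are mice with their replicate number, and lines are means ± SD; median depth was at most 2770.5 UMIs in HttQ175/+ mice and at least 2785 UMIs in WT mice.

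In these mice the median depth of Pnoc/Pvalb nuclei was lower in HttQ175/+ than in WT. Median UMIs per nucleus were 2770.5, 1717, 2443 and 2155.5 in HttQ175/+ replicates 1 to 4 and 2943, 2785 and 2904 in WT replicates 1 to 3. All 4 HttQ175/+ medians lay below all 3 WT medians, with an exact permutation p of 0.0571. In Sst nuclei the medians were 2268, 1726, 2516 and 2020.5 UMIs in HttQ175/+ mice and 2316, 2582 and 2637 UMIs in WT mice. There only HttQ175/+ replicate 3 lay above a WT mouse, and the Sst difference was not tested. Genes detected per nucleus averaged 1412 ± 214 in HttQ175/+ mice and 1609 ± 67.3 in WT mice (exact permutation p = 0.200, n = 4 and 3). Levels in CPM divide by depth, but shares of nuclei with a UMI do not, so genotype shares were taken after thinning.

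No gene passed the test between genotypes in Pnoc/Pvalb nuclei. limma-trend on log2(CPM + 38.8) per mouse, with trimmed-mean (TMM) scaling, called 0 of 916 genes (0%) at a Benjamini-Hochberg adjusted p under 0.05, in either direction. The smallest adjusted p was 0.902. At an unadjusted p under 0.05 there were 20 genes (2.18%) higher and 18 (1.97%) lower in HttQ175/+ mice. The groups did not overlap for 67 genes (7.31%), 29 of them (3.17%) higher and 38 (4.15%) lower. The median SE of a log2 change was 0.43. Levels per mouse are printed before scaling. With at least 15 UMIs in all and a level worth 10 UMIs in 3 mice required, genes of low level such as Pvalb and Pthlh were not among the 916.

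Among the identity genes, Kit stood at 619, 648, 1986 and 822 CPM in HttQ175/+ replicates 1 to 4 and at 1249, 742 and 1393 CPM in WT replicates 1 to 3. The groups overlapped, and the log2 change was -0.26 ± 0.33 (SE; adjusted p = 0.902). The value of 1986 CPM comes from the mouse with 5 nuclei, and without it the change was -0.56. Pvalb stood at 231, 227, 81.9 and 127 CPM in HttQ175/+ mice and at 32.8, 99.7 and 118 CPM in WT mice, on 37 and 11 UMIs in all, and the groups overlapped. Pthlh stood at 134, 177, 273 and 129 CPM in HttQ175/+ mice and at 287, 157 and 185 CPM in WT mice, with the groups again overlapping. Nxph1, Erbb4 and Zeb2 had log2 differences of -0.0050 ± 0.21, -0.077 ± 0.30 and 0.14 ± 0.24, none passing.

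**Figure D4:**
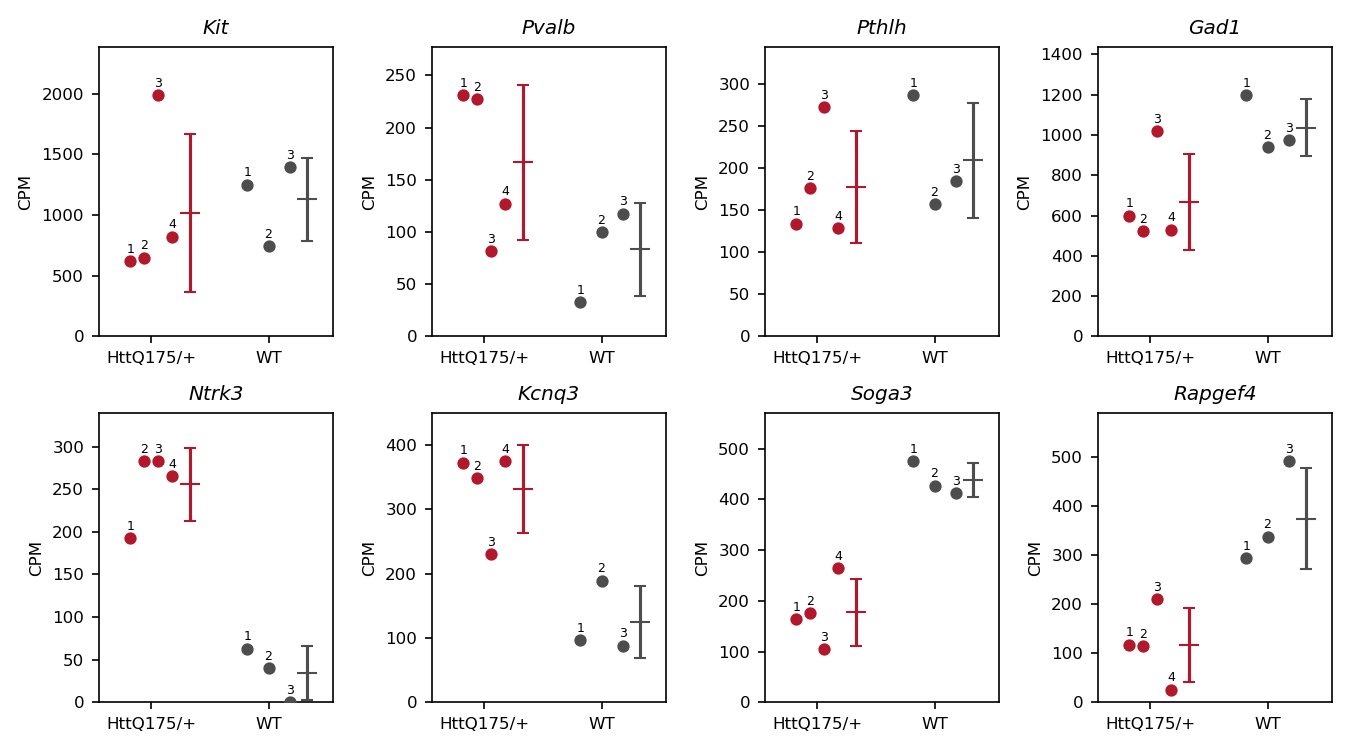
Level (CPM) in Pnoc/Pvalb nuclei by mouse for 4 identity genes (Kit, Pvalb, Pthlh, Gad1) and the leading 2 genes in each direction of the genotype comparison (Ntrk3, Kcnq3, Soga3, Rapgef4). Points are mice with their replicate number, and lines are means ± SD; no gene passed the adjusted test, and Kit overlapped between 619 to 1986 CPM in HttQ175/+ and 742 to 1393 CPM in WT mice.

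Gad1 (chromosome 2, 70553072 to 70602014) stood at 599, 522, 1020 and 530 CPM in HttQ175/+ replicates 1 to 4 and at 1197, 940 and 973 CPM in WT replicates 1 to 3. On the scaled values all HttQ175/+ mice lay below all WT mice, although unscaled replicate 3 of HttQ175/+ lay between WT mice. The log2 change was -0.65 ± 0.23 (unadjusted p = 0.0174, adjusted p = 0.902), which does not pass. Of the other GABA genes, Gad2 differed by -0.54 ± 0.40, Slc32a1 by -0.034 ± 0.63 and Dlx6os1 by -0.023 ± 0.34. The share of nuclei with a Gad1 UMI after thinning was 41.8 ± 12.4% in HttQ175/+ mice and 50.1 ± 9.87% in WT mice (exact permutation p = 0.400).

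The genes of smallest p higher in HttQ175/+ mice were Ntrk3, Kcnq3, Ndufaf4, Ntrk2, Ash1l and Pam, none passing the test, each at an adjusted p of 0.902. Ntrk3, the neurotrophin-3 receptor (chromosome 7, 78175959 to 78738012), stood at 192, 283, 283 and 265 CPM in HttQ175/+ mice and at 62.9, 39.8 and 0 CPM in WT mice, on 40 and 5 UMIs. All HttQ175/+ mice lay above all WT mice, and the log2 change was 2.10 ± 0.66. In Sst nuclei of the same mice Ntrk3 averaged 280 ± 16.7 CPM in HttQ175/+ mice and 325 ± 75.1 CPM in WT mice. Kcnq3, a subunit of the M-current potassium channel, averaged 331 ± 68.6 CPM in HttQ175/+ mice and 125 ± 55.8 CPM in WT mice. Its log2 difference was 1.21 ± 0.39, and it too passed the filter through HttQ175/+ mice only. Ntrk2, the receptor of BDNF, averaged 400 ± 109 CPM in HttQ175/+ mice and 194 ± 27.8 CPM in WT mice, a log2 difference of 0.89 ± 0.30. Ndufaf4, an assembly factor of mitochondrial complex I, Ash1l, a histone methyltransferase, and Pam, which amidates peptides, differed by 0.99, 0.95 and 0.90.

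The genes of smallest p lower in HttQ175/+ mice were Soga3, Rapgef4, Usp34, Gad1, Miat and Dclk1, none passing, again each at an adjusted p of 0.902. Soga3 stood at 164, 176, 105 and 264 CPM in HttQ175/+ mice and at 475, 427 and 412 CPM in WT mice, with no overlap and a log2 difference of -1.18 ± 0.36. Rapgef4, a cyclic AMP-activated exchange factor, stood at 118, 114, 211 and 26.0 CPM in HttQ175/+ mice and at 294, 338 and 491 CPM in WT mice, on 21 and 42 UMIs, a log2 difference of -1.53 ± 0.49. Soga3 and Rapgef4 likewise needed the WT mice to pass the filter, which favoured their lack of overlap. Usp34, a deubiquitinase, Miat, a nuclear noncoding RNA, and Dclk1, a microtubule-binding kinase, differed by -0.86 ± 0.30, -0.75 ± 0.27 and -0.77 ± 0.28. After thinning, Miat was found in 25.0 ± 4.29% of nuclei in HttQ175/+ mice and 48.7 ± 5.98% in WT mice. That share had the smallest possible exact permutation p of 0.0286, as did 1 other of the 215 genes whose shares were compared, with adjusted p of 1.

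**Figure D5:**
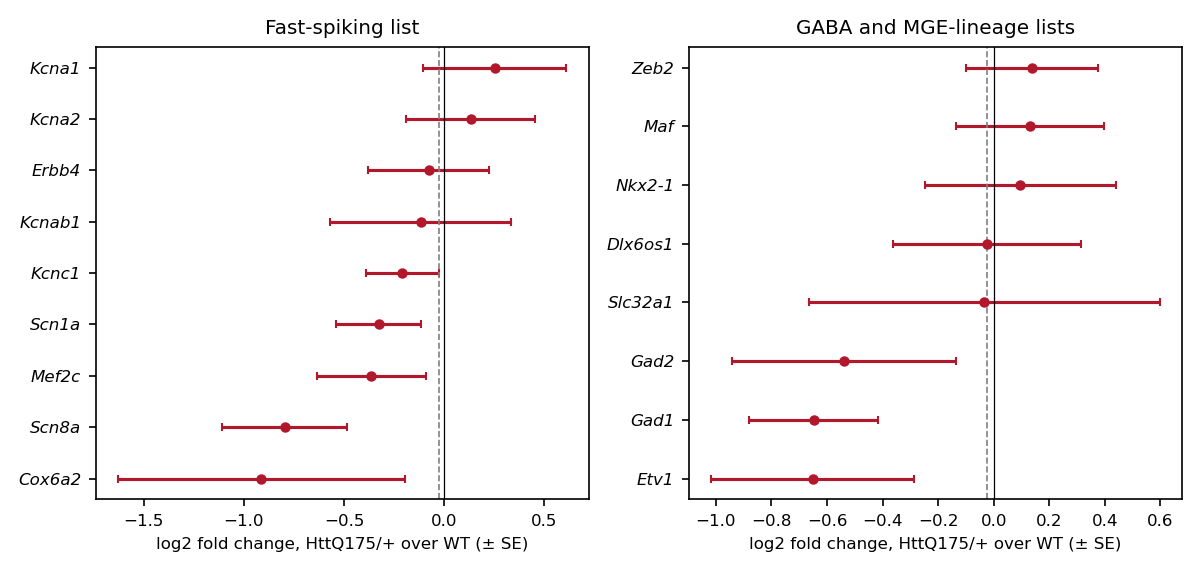
Log2 change (HttQ175/+ over WT) ± SE from limma in Pnoc/Pvalb nuclei for 9 of the 12 tested members of the fast-spiking list (left) and for members of the GABA and ganglionic eminence lineage lists (right). The dashed line is the median of all 916 genes, -0.024. Of the 9 fast-spiking genes drawn 7 lie below 0, beside 478 of all 916 genes, and none passed the test.

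Of 25 fast-spiking genes 12 were tested, 0 were called, and 10 had a negative and 2 a positive difference, with a median of -0.27. Over all 916 genes, 478 were negative and 438 positive, with a median of -0.024. For 4 of them, among them Kcnc1, Scn8a and Mef2c, all HttQ175/+ mice lay below all WT mice, beside 38 of 916 genes (4.15%) lower without overlap in all. Scn8a, the sodium channel Nav1.6, stood at 399, 318, 201 and 384 CPM in HttQ175/+ mice and at 574, 602 and 564 CPM in WT mice, a log2 difference of -0.80 ± 0.31 (adjusted p = 0.902). Scn1a differed by -0.33 ± 0.21. Kcnc1 stood at 740, 813, 944 and 922 CPM in HttQ175/+ mice and at 1011, 954 and 1008 CPM in WT mice, a log2 difference of -0.21 ± 0.18, which turned to 0.11 without nuclei holding at least 3 UMIs of glial or vascular markers, where HttQ175/+ replicate 3 also leaves the fit. Kcna1 and Kcna2, potassium channels of axons, differed by 0.25 ± 0.36 and 0.13 ± 0.32. Depth was lower in the same HttQ175/+ mice, and its part in these values was not tested.

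In the ganglionic eminence lineage 5 of 17 transcription factors were tested, with 0 called, 4 positive, 1 negative and a median of 0.13. Over all 916 genes, 438 were positive and 478 negative. The negative transcription factor was Etv1, at 276, 318, 139 and 304 CPM in HttQ175/+ mice and 520, 382 and 360 CPM in WT mice, without overlap, a log2 difference of -0.65 ± 0.37. Of 7 ionotropic glutamate receptor genes tested, 5 were negative and 2 positive, and of 5 synaptic adhesion genes 4 were negative. Beside the balance over all 916 genes, no trend is read from so few genes. None of the 7 perineuronal net genes or the 20 peptide and peptide receptor genes was high enough to be tested. Nrxn3, a neurexin, stood at 862, 831, 680 and 772 CPM in HttQ175/+ mice and at 1094, 1171 and 1140 CPM in WT mice, a log2 difference of -0.51 ± 0.21 (adjusted p = 0.902). Htt averaged 260 ± 141 CPM in HttQ175/+ mice and 241 ± 88.5 CPM in WT mice, a difference of -0.021 ± 0.53. Tags from the transcript's 3' end do not read the repeat, so Htt does not check the genotype here.

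Of 26 genes reported as changed by the mutation in spiny neurons, a list drawn from these same libraries, 9 were tested in Pnoc/Pvalb nuclei and 0 were called. Of these 9, 4 were positive and 5 negative, with a median of -0.11, beside 438 positive and 478 negative of all 916 genes. Pde10a, the striatal phosphodiesterase, averaged 384 ± 120 CPM in HttQ175/+ mice and 292 ± 304 CPM in WT mice, with overlap. Cnr1 averaged 654 ± 112 CPM in HttQ175/+ mice and 504 ± 134 CPM in WT mice, a log2 difference of 0.37 ± 0.26. In direct pathway spiny neurons of the same libraries, pooled Cnr1 stood at 171 CPM in HttQ175/+ mice and 636 CPM in WT mice. Pooled over mice, Onecut2 gave 29 UMIs in 11 of 80 HttQ175/+ nuclei and 0 in 40 WT nuclei. With WT set to 3 UMIs in all, the ratio is 6.04, which covers neither counting error nor the spread between mice. By mouse, Onecut2 gave 12, 10, 0 and 7 UMIs in HttQ175/+ replicates 1 to 4, so replicate 3 stood at 0 like every WT mouse. Its share, 13.8% in HttQ175/+ nuclei, lay below that of oligodendrocytes, where 40.6% of HttQ175/+ and 25.6% of WT nuclei held a UMI, so no expression is read from it. The part of free RNA in these UMIs was not tested.

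In Sst nuclei the same test called 0 of 2296 genes (0%), with 172 (7.49%) at an unadjusted p under 0.05, 97 (4.22%) higher and 75 (3.27%) lower, and a smallest adjusted p of 0.281. Groups did not overlap for 185 (8.06%), 95 (4.14%) higher and 90 (3.92%) lower. The difference of the genotype change between Pnoc/Pvalb and Sst nuclei, fitted within mice by limma, was called for 0 of 2362 genes (0%), with 111 (4.7%) at an unadjusted p under 0.05 and a smallest adjusted p of 0.889. The 3 genes of smallest p, none passing, were Sun1, a nuclear envelope protein, at 1.96 ± 0.54, Ntrk3 at 2.27 ± 0.62 and Rapgef4 at -2.02 ± 0.60. No genotype change was therefore shown to be particular to Pnoc/Pvalb nuclei or shared with Sst nuclei.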

How the data were processed

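Nuclei of flash-frozen striatum were made into 10x 3' libraries (version 3 chemistry), per the labels' protocols. Reads went through Cell Ranger 3.0.2 and Seurat on mm10, per the submitters' processing notes. Strand use, filters on nuclei and cell type calling remain unstated in the labels and notes. The authors deposited natural log values, ln of 1 plus UMIs per 10000 in each nucleus; whole UMIs were recovered, 100% of 5824756 values within 0.02. The deposited annotation, with other columns such as cell type, was used as given, and a smoothed table was not used. Doublets were not called here.

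Means over nuclei per mouse, as CPM, were fitted with limma 3.58.1 in R 4.3.3, since log values, rather than counts, were deposited. Mice needed at least 5 nuclei. Scaling factors were first computed over all genes with at least 15 UMIs; after those results were seen, this was changed to the genes passing the low-value filter, because the mouse with 5 nuclei had a factor of 1.35, now 1.15. The first version is kept as an alternative.

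The members and gene lists were chosen with earlier results of these data known. Genes were named by a fixed rule: among non-overlapping genes with at least 20 CPM, those past the threshold, or, where fewer than 3 passed, the 6 of smallest p in each direction; between types, the 12 (Sst) or 8 (Chat) largest differences with 1 direction in every mouse and at least 50 CPM; plus list members and Htt. Genes with provisional names were not named, and a few genes that these rules select are not reported here. Coordinates are from GENCODE vM21. Shares were compared by exact permutation in Python 3.11.15. The fits were tested on simulated data.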

Additional observations from a re-analysis of the deposited data

Results flagged for a closer look

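In the Pnoc/Pvalb nuclei of HttQ175/+ replicate 3, 4 levels stood apart from those of the other 3 HttQ175/+ mice. Their gap to the nearest mouse, divided by the range of the group, was above Dixon's 95% limit for 4 samples. They were Kit at 1986 CPM, Gad1 at 1020 CPM, Zeb2 at 854 CPM and Ash1l at 715 CPM. Of 29 measures checked these 4 passed the limit. A chance rate of about 1 in 20 holds for each measure alone. These 4 share the same 5 nuclei of 1 mouse, so no excess over chance is read from their number. That mouse gave 5 Pnoc/Pvalb nuclei and 11334 UMIs, the fewest of the 7 mice. Without it, the log2 changes of HttQ175/+ over WT were -0.56 for Kit, -0.79 for Gad1, 0.055 for Zeb2 and 0.78 for Ash1l, and none passed the test (limma adjusted p of 0.744 for Kit, Gad1 and Ash1l and 0.995 for Zeb2).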

How the results depend on the processing

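No genotype call in Pnoc/Pvalb nuclei was made when any 1 mouse was left out (0 to 0 genes in each direction). None was made with other pseudocounts, without scaling, with summed UMIs or with mice weighted by UMIs. The first scaling gave none either (0 called, 40 at an unadjusted p under 0.05). With at least 10 nuclei per mouse none was called, but HttQ175/+ replicate 3 and WT replicate 3 leave that fit. That fit, and each fit without a WT mouse, holds 2 WT mice, so its lack of calls says little. Without a filter on low values 1 gene was called higher (Asph, 2.40, adjusted p = 0.0371) and 1 lower (Malat1, -0.40, adjusted p = 1.8e-07) of 13145 tested. In that limma fit every gene took the variance of the trend over all genes (65725 degrees of freedom). Those p-values therefore ignore each gene's own spread between mice, and no change is read from them. Without nuclei holding glial or vascular markers, an alternative chosen after seeing the data that leaves HttQ175/+ replicate 3 out, 1 gene with a provisional name was called higher; the cause was not tested. The unadjusted count of 38 was 23 without HttQ175/+ replicate 4. In Sst nuclei 0 to 1 genes were called higher when a mouse was left out, the 1 without WT replicate 1, and the unadjusted count of 172 was 111 without HttQ175/+ replicate 2 and 112 without replicate 4. For the difference of changes, the unadjusted count of 111 was 180 with at least 10 nuclei per mouse and 73 without HttQ175/+ replicate 2, with 0 called in each.

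Of 23 genes followed, 19 kept their direction in all alternatives run; the other 4 were Htt, Nxph1, Erbb4 and Kcnc1. Of the 23, 12 were named for small p without overlap and the rest were picked with values known, so a kept direction is in part set by that choice and is no sign of stability. Htt was 0.018 with a pseudocount of 5 UMIs, 0.041 with summed UMIs, 0.23 with at least 10 nuclei per mouse, 0.24 with mice weighted by UMIs and 0.61 without glial nuclei, and -0.27 to 0.47 over left-out mice. Nxph1 was 0.017 with at least 10 nuclei, 0.023 weighted, 0.16 without glial nuclei and 0.030 without nuclei lacking all 5 identity genes (-0.051 to 0.053 over left-out mice). Without glial nuclei Erbb4 was 0.080 and Kcnc1 0.11; Erbb4 ranged from -0.22 to 0.16 over left-out mice. The share of all nuclei differed by -1.82 to 0.038 percentage points over left-out mice, the Kit share by -16.2 to 2.32 and the Pthlh share by -2.57 to 8.39. The Pthlh share differed by 4.47 thinned and by -11.5 unthinned. No paired analysis was possible because no replicate number in the labels links a mutant with a WT mouse.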
